A study of Mus musculus with 4 samples.

Results

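The genes described here code for factors that a stressed heart secretes, and for the receptors through which 1 of them, FGF21, signals. They are Gdf15, Fgf21, Klb, Fgfr1, Fstl1, Fstl3, Inhba, Inhbb, Mstn and Metrnl, 10 genes of the 36814 rows in the authors' deposited table, each found as 1 row by its symbol. The list was chosen on values of the comparison given below, since it was drawn up with the earlier results of these data in view. The members' own changes are therefore a description, and no p-value over the list is given.

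From its title the study asked what loss of hnRNP U, a nuclear RNA-binding protein, does to the heart after birth. Total RNA of ventricles without atria was sequenced in 2 wild type samples, the controls, and 2 Hnrnpu mutant samples at postnatal day 14, on a background mixed from C57BL/6 and 129 S4, with 1 male and 1 female in each group by the labels. The mutants carry conditional Hnrnpu alleles and the Ckmm-Cre transgene, whose muscle creatine kinase promoter is active in heart and skeletal muscle, so other cells of the ventricle keep the gene. The labels do not say whether the wild type mice carried the Cre or the conditional alleles, which mice were littermates, or whether a sample pools several hearts. The table gives 1 RPKM value per group (reads scaled by transcript length and by the number of mapped reads). Levels are therefore printed without a spread. The p-values rest on these few samples, and how the authors' test estimated the spread of each gene is not given in the sources used here. Neither they nor the intervals worked back from them show how well the replicates of a gene agreed.

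Hnrnpu itself was listed at 32.7 RPKM in wild type and 15.2 RPKM in mutant, without a call in the authors' test (adjusted p = 0.438). The worth of 1 read, taken from short genes of known length, was 0.0170 to 0.0200 RPKM times kilobases in wild type and 0.00650 to 0.00890 in mutant, which makes the mutant libraries together 2.44 times as deep if the authors scaled by mapped reads. Heart muscle markers were abundant in both groups, with a summed level over 10 markers of 9284 RPKM in wild type and 7499 RPKM in mutant. Of these 10 markers 9 were below control and 1 above, without a call, and their median log2 fold change was -0.31. Markers of fat and liver, organs known for FGF21 signalling or secretion, were near 0, with 0.0497 and 0.0273 RPKM summed over 7 fat markers and 0.275 and 0.229 RPKM over 6 liver markers. These are bulk samples, in which fewer cells of a type and less RNA per cell cannot be told apart.

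As background, GDF15 and FGF21 are hormones that cells release under mitochondrial or amino acid stress, and both genes are known targets of the transcription factor ATF4. FGF21 needs an FGF receptor, mainly FGFR1, together with the coreceptor beta-klotho, the product of Klb. Activins are dimers of the subunits that Inhba and Inhbb code for, myostatin (Mstn) is a related ligand that limits muscle growth, and both act through the type II receptors ACVR2A and ACVR2B. Follistatin (Fst) and FSTL3 bind activins and myostatin and block them, whereas FSTL1 and meteorin-like (Metrnl) are secreted glycoproteins that heart and muscle are known to release.

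In the mutant ventricles Gdf15, Fgf21, Fstl3 and Inhbb rose, and the other members did not pass the test. A gene counted as called when the authors' deposited adjusted p-value was below 0.05. By this rule 4 of 10 members were called higher and none lower, and the authors' deposited table calls 2.03% of its 24454 tested rows higher, 1.48% lower and 3.51% in either direction. Because the list was chosen on this comparison, nothing is read from that difference. An unadjusted p below 0.05 was found for 6 members, against 12.6% of all tested rows. The median log2 fold change was 1.69 over the members and 0.07 over all tested rows, and 7 of 10 members were above control, against 52.8% of tested rows.

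**Figure D1:**
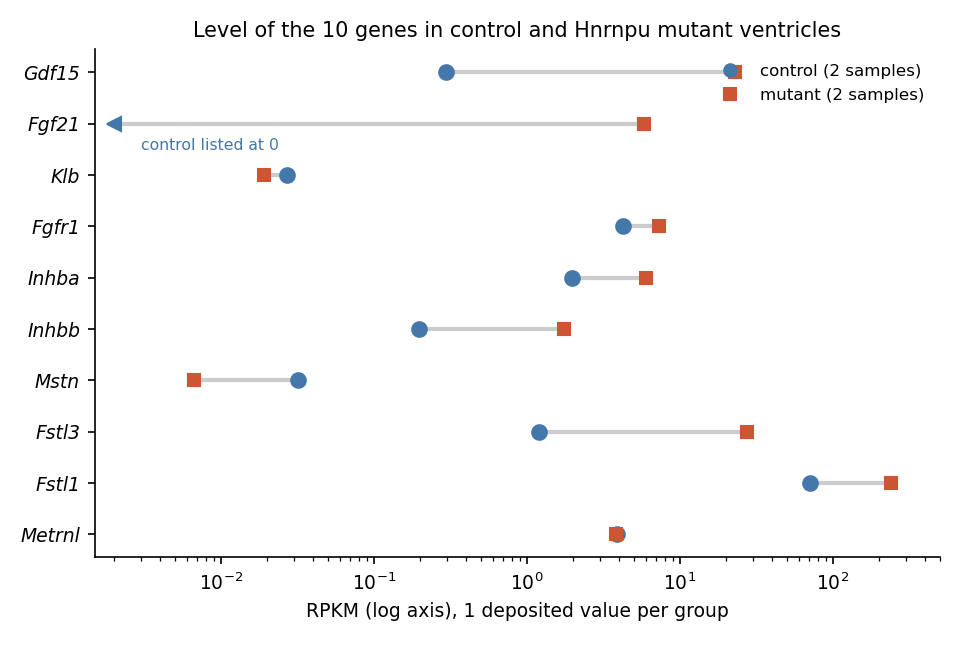
Levels of the 10 genes as RPKM on a log axis, with 1 deposited value for control (circles) and 1 for mutant (squares) and no error bars, because values per animal were not analysed. Gdf15 runs from 0.295 to 22.8 RPKM and Fgf21 from a value listed at 0, drawn as an arrow at the left edge, to 5.88 RPKM, while the Metrnl points lie on each other.

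Gdf15, the stress cytokine of the TGF-beta superfamily (minus strand of chromosome 8, 73153292 to 73156355, mm9), was listed at 0.295 RPKM in wild type and 22.8 RPKM in mutant. In the authors' deposited table this is a 77.4-fold rise, a log2 fold change of 6.28 with adjusted p = 8.51e-20, and its p-value was number 2 of the 24454 tested rows. The 95% interval implied by that p-value, read as a two-sided normal test, ran from 33.3-fold to 181-fold. In control 32.4% of tested protein coding genes were listed lower than Gdf15, and in mutant 95.2% were. With the exon length of a later annotation as a stand-in, the control value amounts to about 27 to 32 reads and the mutant value to about 4744 to 6496 reads.

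Of the known GDF15 receptor pair, Gfral was close to undetected and Ret fell. Gfral, the GDF15 receptor that is confined to the hindbrain in adult mice, was listed at 0 in wild type and 0.00311 RPKM in mutant. Ret, the coreceptor kinase that GFRAL shares with other receptors, fell from 1.38 to 0.252 RPKM (log2 fold change -2.45 and adjusted p = 0.00191 in the authors' deposited table).

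Fgf21 (minus strand of chromosome 7, 52869277 to 52870860, mm9) was listed at 0 in wild type and 5.88 RPKM in mutant, and it rose with adjusted p = 3.50e-13 in the authors' deposited table. No fold is given against a value of 0. A lone read would have been listed at 0.0179 to 0.0210 RPKM in wild type, and the mutant value amounts to about 628 to 860 reads. In mutant 79.6% of protein coding genes were listed below Fgf21, and among the called members it stood below Fstl3 and Gdf15 and above Inhbb.

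The stretches before the start sites of Fgf21 and Gdf15 are shown because both genes are known for control by ATF4, whose own transcript rose. Each is the stretch of 250 bases before a start of transcription in RefSeq, build GRCm38.p6, written 5′ to 3′ on the gene's strand, Fgf21 at chr7:45615491-45615740 and Gdf15 at chr8:70632457-70632706, both on the minus strand. Capitals mark matches on either strand to TGATGNAA (the core of the element that C/EBP and ATF factors bind), TGACG (the short form of the cAMP response element) and CACGTG (an E-box).
Fgf21: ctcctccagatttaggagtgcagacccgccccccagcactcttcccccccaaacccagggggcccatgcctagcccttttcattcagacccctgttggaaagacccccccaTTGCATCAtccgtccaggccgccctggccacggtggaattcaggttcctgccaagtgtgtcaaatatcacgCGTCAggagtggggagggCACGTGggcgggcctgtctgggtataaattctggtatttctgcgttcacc
Gdf15: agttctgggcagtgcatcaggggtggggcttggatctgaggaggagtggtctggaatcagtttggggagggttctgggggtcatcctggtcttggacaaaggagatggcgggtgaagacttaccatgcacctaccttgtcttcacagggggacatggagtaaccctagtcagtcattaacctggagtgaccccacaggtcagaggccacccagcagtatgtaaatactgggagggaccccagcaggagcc

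In the Fgf21 stretch TTGCATCA, the reverse complement of a TGATGNAA match, begins 139 bases before the start. The short cAMP element, on the other strand, begins 68 bases before it, and the E-box 50 bases before it. The Gdf15 stretch holds none of the 3 motifs, and the window of a second, downstream Gdf15 start holds an E-box 83 bases before that start. Among 10 windows of 300 bases for 9 members (250 before and 50 after each start), TGATGNAA was found in that of Fgf21 alone, the short cAMP element in those of Fgf21, Klb and Mstn, and the E-box in those of Fgf21 and Gdf15. The full cAMP element TGACGTCA, which contains the short form, was in none of them. Of all 32851 promoter windows in the same RefSeq table, 3.97% hold TGATGNAA, 20.8% the short cAMP element, 1.79% its full form and 7.15% the E-box. A match describes letters and not a bound site.

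Of 12 transcription factors and regulators known to act on Gdf15 or Fgf21, 3 were called higher and none lower, and their median log2 fold change was 0.49. The share of all tested rows called, 2.03% higher and 1.48% lower, belongs beside this count and that of each list below. Atf4 rose from 25.7 to 125 RPKM (adjusted p = 0.00562), its relative Atf5 from 9.14 to 47.6 RPKM (adjusted p = 0.000858) and Trib3, a pseudokinase target and brake of ATF4, from 0.745 to 11.6 RPKM (adjusted p = 1.41e-09), all in the authors' deposited table. Atf5 shares its span with other genes on the opposite strand. Ddit3 and Atf3, factors of the same stress program, were listed at 4.46 RPKM each in wild type and at 4.08 and 4.32 RPKM in mutant. Ppara, the fatty acid receptor that drives Fgf21 in fasting liver, was listed at 3.31 RPKM in wild type and 1.18 RPKM in mutant (the authors' adjusted p = 0.107), and Trp53, a known activator of Gdf15, at 5 and 3.25 RPKM (adjusted p = 0.756).

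The receptors for FGF21 did not pass the test. Klb, the coreceptor that makes a cell responsive to FGF21 (chromosome 5, 65739625 to 65775242, mm9), was listed at 0.0273 RPKM in wild type and 0.0191 RPKM in mutant, with adjusted p = 1 in the authors' deposited table. These levels amount to about 6 to 7 reads in wild type and 10 to 13 in mutant. With so few reads a fall or a small rise of Klb was not detectable. A large rise from such a level could be called, as for Ereg (0.0180 RPKM in wild type and 0.419 RPKM in mutant). Fgfr1, the receptor kinase itself (chromosome 8, 26624126 to 26686186, mm9), was listed at 4.24 RPKM in wild type and 7.33 RPKM in mutant (log2 fold change 0.79, implied 95% interval from -0.22 to 1.79, the authors' adjusted p = 0.599). Per length, Fgfr1 stood 155 times as high as Klb in wild type and 384 times as high in mutant. It shares 7423 bases of its span with Gm16159, a noncoding gene on the other strand listed at 0.228 and 0.691 RPKM.

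Of 9 other genes of FGF receptors, their adaptors and endocrine FGFs, none was called, and 1 had an unadjusted p below 0.05. That gene is Fgf23, a hormone of phosphate balance, listed at 0 in wild type and 0.166 RPKM in mutant (adjusted p = 0.0597 in the authors' deposited table). Fgfr3 was listed at 2.53 and 2.83 RPKM, Fgfr2 at 0.333 and 0.719 RPKM, Fgfr4 at 0.0387 and 0.0487 RPKM, and Kl, the coreceptor for FGF23, at 0.0185 and 0.00128 RPKM. Of 12 genes that FGF receptor signalling is known to induce, 3 were called higher, none lower and 1 was listed at 0 in both groups. Spry1, an inhibitor of receptor kinase signalling, rose from 8.90 to 30.1 RPKM (the authors' adjusted p = 0.0277), Etv5, a transcription factor of the ETS family, from 0.435 to 1.71 RPKM (adjusted p = 0.0293), and Fos, a general early response gene, from 1.50 to 7.19 RPKM (adjusted p = 0.00154). Dusp6, a phosphatase that is often used to read out FGF signalling, was listed at 4.32 and 8.14 RPKM (the authors' adjusted p = 0.460). Of the 11 tested genes of this list 9 were above control and 2 below. Those below were Spry2, at 8.34 RPKM in wild type and 5.84 RPKM in mutant, and Spred2, at 2.76 and 2.46 RPKM, both without a call.

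The activin subunits differed in level and in what passed the test. Inhba, the subunit of activin A (chromosome 13, 16103684 to 16119044, mm9), was listed at 1.97 RPKM in wild type and 6.05 RPKM in mutant. Its deposited log2 fold change was 1.62 (implied 95% interval from 0.54 to 2.70), with p = 0.00315 and the authors' adjusted p = 0.0740, just above the threshold. Inhbb, the subunit of activin B (minus strand of chromosome 1, 121312042 to 121318825, mm9), rose from 0.199 to 1.75 RPKM, a log2 fold change of 3.14 (implied 95% interval from 1.93 to 4.35) with adjusted p = 6.07e-05 in the authors' deposited table. Whether the 2 subunits changed by different amounts was not tested, and their intervals overlap. Per length, Inhba stood 9.90 times as high as Inhbb in wild type and 3.46 times as high in mutant, so it had the higher level in both groups.

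Mstn (chromosome 1, 53118507 to 53124923, mm9) was at the edge of detection, at 0.0319 RPKM in wild type and 0.00669 RPKM in mutant, or about 4 to 5 and 2 to 3 reads. The deposited p-value was 0.148 (the authors' adjusted p = 0.649), and the implied 95% interval of its log2 fold change ran from -5.30 to 0.80. At this depth a fall of Mstn could not be told from no change, and the upper end of that interval is 1.74-fold. The close relative Gdf11 was listed at 0.696 and 0.396 RPKM, and the activin subunits Inhbc and Inhbe at no more than 0.0174 RPKM in either group.

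Fstl3, the secreted antagonist (chromosome 10, 79240017 to 79245375, mm9), rose from 1.21 to 27.4 RPKM, a 22.6-fold change with adjusted p = 1.67e-12 in the authors' deposited table. The implied 95% interval ran from 10.5-fold to 48.6-fold. Set against the ligand subunits, Fstl3 stood at 0.558 times the sum of Inhba and Inhbb in wild type (2.17 RPKM) and at 3.51 times that sum in mutant (7.80 RPKM). Fst itself was listed at 0.180 RPKM in wild type and 0.797 RPKM in mutant and was not called (the authors' adjusted p = 0.0997), so that Fstl3 was the more abundant of these antagonists in both groups.

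The value of Fstl3 is uncertain because the gene runs into Prssl1 (now Prss57), a protease gene of neutrophils on the other strand, from 79244219 to 79253706. Prssl1 was listed at 0.836 RPKM in wild type and 14.8 RPKM in mutant (17.6-fold, adjusted p = 6.48e-11 in the authors' deposited table). The genes share 1157 bases, and in the later GENCODE mouse annotation all of these are exonic in both, 47.3% of the exon bases of Fstl3 and 40.7% of those of Prssl1. Multiplied by the shared length, the Fstl3 level gives 1.40 RPKM times kilobases for wild type and 31.7 for mutant. Over the whole exon length Fstl3 gives 2.96 and 67.0, and Prssl1 gives 2.38 and 42.1. By these lengths the whole of Fstl3 is larger than the whole of Prssl1 in both groups. The value of the shared part takes coverage as even, and both wholes may hold the same shared reads. They therefore do not show which gene the reads came from. Whether the counting used strand is not given in the sources used here, so reads from the shared part cannot be assigned. Other neutrophil genes, listed after the value of Prssl1 had been seen, gave no call among 9: the granule protease genes Elane, Prtn3 and Ctsg and the peroxidase gene Mpo were at no more than 0.0348 RPKM in either group, and S100a8 and S100a9 at 2.16 and 1.72 RPKM in wild type and 3.12 and 3.20 RPKM in mutant. The sum of the 9 was 4.37 RPKM in wild type and 6.75 RPKM in mutant, and the part of neutrophils in the value of Prssl1 was not tested.

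The receptors for activin and myostatin gave no call among 9 in the authors' deposited table, and none had an unadjusted p below 0.05. The type II receptors Acvr2a and Acvr2b were listed at 3.90 and 1.13 RPKM in wild type and 2.66 and 0.669 RPKM in mutant, and the type I receptor Acvr1b at 1.78 and 2.29 RPKM. Of 17 genes for antagonists, maturation and SMAD signalling, 3 were called higher and none lower, with a median log2 fold change of 0.60. Those 3 were Smad6 (2.50 to 12.5 RPKM, the authors' adjusted p = 0.000670) and Smad7 (3.15 to 10.1 RPKM, adjusted p = 0.0374), which inhibit signalling of this receptor family, and Bambi, a decoy receptor (1.18 to 4.87 RPKM, adjusted p = 0.00510). Furin, a protease that cleaves the precursors of these ligands, was listed at 5.46 and 10.4 RPKM (the authors' adjusted p = 0.504).

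Among 16 other ligands of the same superfamily, Gdf6, a bone morphogenetic protein of joints, rose from 0.200 to 4.08 RPKM (the authors' adjusted p = 6.66e-10) and Bmp6 from 2.24 to 11.4 RPKM (adjusted p = 0.000506). None of the 16 was called lower, although 7 were listed below control, and Bmp6 overlaps Txndc5 on the other strand. Bmp10, a ligand of the atrial wall after birth, was listed at 0.0457 RPKM in wild type and 0 in mutant.

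Fstl1, despite its name a matricellular protein of the SPARC family (chromosome 16, 37776959 to 37836600, mm9), was by level the main member. It was listed at 70.7 RPKM in wild type and 239 RPKM in mutant, 85.6% and 76.1% of the summed RPKM of the 10 genes. The deposited fold was 3.38 with p = 0.0488, but the authors' adjusted p was 0.392, so it was not called, and the implied 95% interval ran from 1.01-fold to 11.4-fold. Spry1 has the same deposited fold of 3.38 at a lower level and was called. The implied standard error on the log2 scale was 0.89 for Fstl1 and 0.52 for Spry1. Over protein coding genes with a p-value of at most 0.5, the median of this error was 0.524 at 10 to 50 RPKM (1205 genes). It was 0.594 at 50 to 200 RPKM (160 genes) and 0.737 at 200 to 1000 RPKM (24 genes). Among protein coding genes that were 3 to 5 times as high in mutant, 127 of 180 were called at a mean of 1 to 10 RPKM, 53 of 64 at 10 to 50 RPKM, 8 of 16 at 50 to 200 RPKM and 9 of 174 at 0.1 to 1 RPKM. The missing call for Fstl1 therefore does not show that its level was the same.

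**Figure D2:**
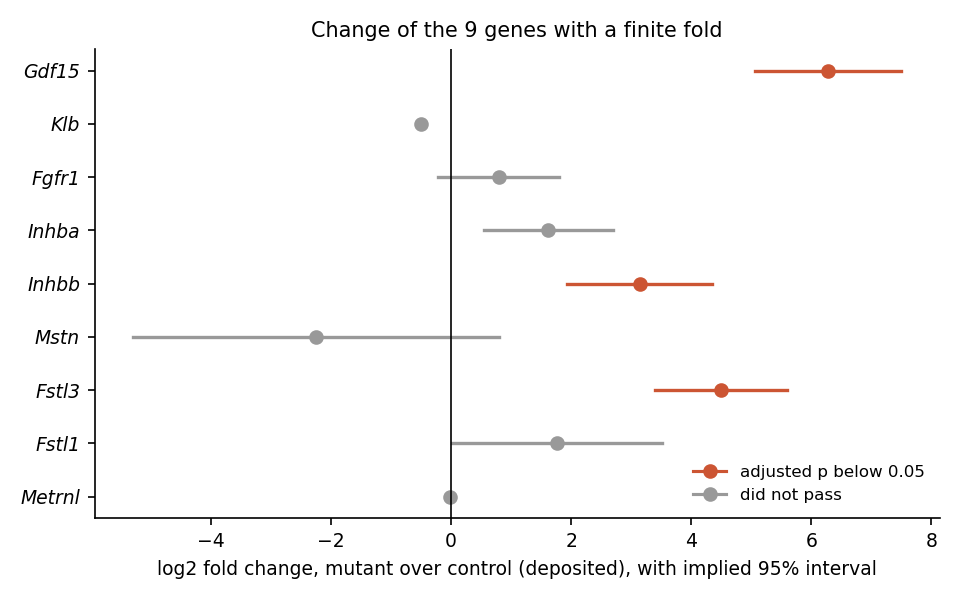
Deposited log2 fold change, mutant over control, of the 9 members with a finite fold, with bars for the 95% interval implied by each deposited p-value of at most 0.5, so that Klb and Metrnl have no bar. The intervals of Gdf15, Fstl3 and Inhbb lie well above 0, that of Inhba from 0.54 and that of Fstl1 from 0.01, while that of Mstn runs from -5.30 to 0.80.

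**Figure D3:**
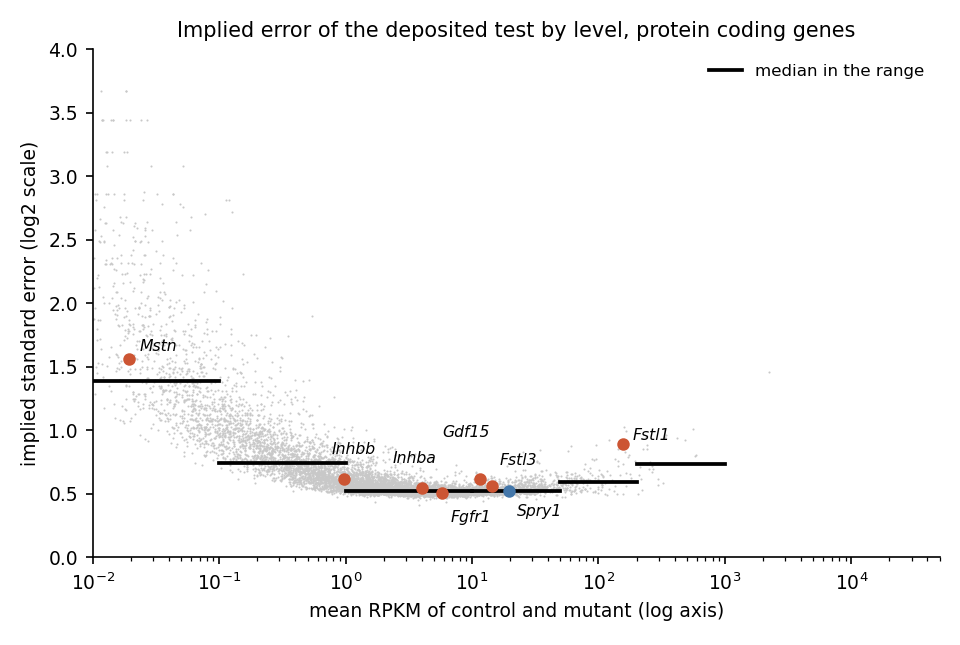
Implied standard error of the log2 fold change against the mean RPKM (log axis) for 9397 protein coding genes with a p-value of at most 0.5 (grey points), with medians by range (black bars), the 7 members with such a value (orange) and Spry1 (blue). Mstn sits at the low end, where the error is large, and Fstl1 at 155 RPKM lies above the median of its range.

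Metrnl, a secreted factor of muscle and fat (chromosome 11, 121562858 to 121577620, mm9), was listed at 3.90 RPKM in wild type and 3.83 RPKM in mutant. Its deposited log2 fold change was -0.02 with the authors' adjusted p = 1, and at a p-value so near 1 no interval can be worked back from it. Its relative Metrn was listed at 7.56 and 4.78 RPKM (the authors' adjusted p = 0.763). Kit, a receptor reported for METRNL, fell from 1.81 to 0.424 RPKM (adjusted p = 0.0102 in the authors' deposited table), and Dip2a, a receptor reported for FSTL1, was listed at 3.14 and 2.07 RPKM without a call.

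In order of level the control hearts had Fstl1 first, then Fgfr1, Metrnl, Inhba, Fstl3, Gdf15, Inhbb, Mstn, Klb and Fgf21. In mutant hearts the order was Fstl1, Fstl3, Gdf15, Fgfr1, Inhba, Fgf21, Metrnl, Inhbb, Klb and Mstn. RPKM is scaled by length, but with 1 value per group it cannot be said which neighbours in these orders differ beyond their spread.

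The genes with group values nearest to a called member, by distance of log2 RPKM over the 2 group values, were Wisp2, Fkbp5 and Serpina3n for Gdf15 (distances from 0.77 to 1.27), Psat1, Slc7a5 and Chac1 for Fstl3 (0.40 to 0.52), and Mthfd1l, Itga11 and Ttll7 for Inhbb (0.20 to 0.23). Each of these 9 genes was itself called. They were picked for group values close to those of a called gene, so nothing is read from their calls. Likeness over 2 values only says that the levels are close. Fgf21 was listed at 0 in control and has no log2 level there, so no nearest genes were sought for it.

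Among 37 further secreted factors of the stressed heart, 5 were called higher and 1 lower, and 14 had an unadjusted p below 0.05, in both directions. Of the 37, 23 were above control and 14 below, and their summed level was 249 RPKM in wild type and 189 RPKM in mutant. Vegfa, the most abundant of them in wild type, was listed at 65.1 and 29.2 RPKM without a call (the authors' adjusted p = 0.458). Bdnf, a neurotrophin, rose from 0.331 to 2.65 RPKM (the authors' adjusted p = 1.61e-05). Lcn2, an iron-binding lipocalin of the acute phase, rose from 0.0820 to 1.58 RPKM with the same adjusted p. Edn1, the vasoconstrictor endothelin, rose from 2.26 to 9.82 RPKM (the authors' adjusted p = 0.00343). Nrg1 and Ereg, ligands of ERBB receptors, rose from 0.0737 to 1.15 RPKM (the authors' adjusted p = 5.25e-05) and from 0.0180 to 0.419 RPKM (adjusted p = 0.000523). Fgf9 fell from 1.12 to 0.278 RPKM (the authors' adjusted p = 0.0386). Over all 122 ligand, receptor, response and upstream genes beside the members, 121 were tested, of which 16 were called higher and 3 lower. Of all tested rows 2.03% were called higher and 1.48% lower. These lists were written with earlier results of the data known, so nothing is read from that difference.

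**Figure D4:**
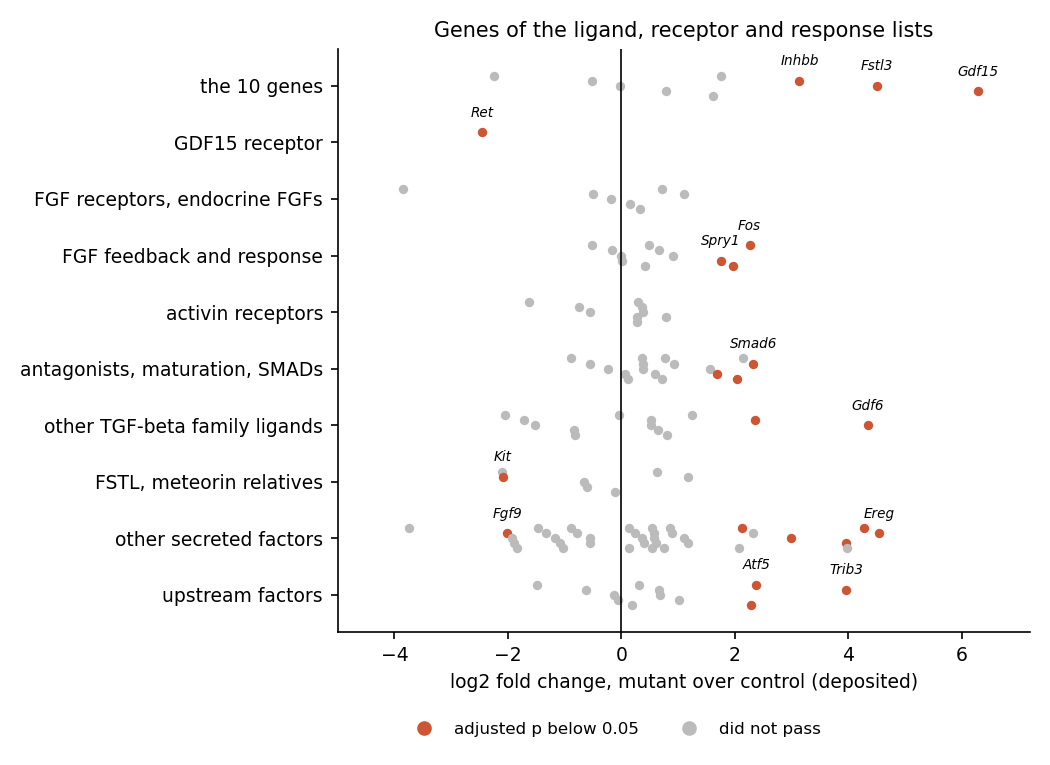
Deposited log2 fold change, mutant over control, of each listed gene with a finite fold (points, orange where the authors' adjusted p was below 0.05), 1 line per list; 9 of the 132 genes, Fgf21 among them, were listed at 0 in a group and are not drawn. All 9 activin receptor points are grey, and Gdf15 lies farthest to the right.

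Markers of other cells are given beside these changes. All 9 macrophage markers were above control without a call (median log2 fold change 1.14, range of levels from 0.264 to 16.1 RPKM in wild type and from 0.665 to 42.4 RPKM in mutant), and their sum was 59.4 RPKM in wild type and 134 RPKM in mutant. Fibroblast markers gave no call among 9, with a median of 0.99 and a sum of 761 and 1014 RPKM. Of them 6 were above control and 3, namely Dcn, Lum and Dpt, were below. Of 8 mural markers Tagln rose from 9.76 to 42.6 RPKM (the authors' adjusted p = 0.00299), the median log2 fold change was 0.05 and the sum was 297 and 945 RPKM. Most of that difference in the sum lay in Acta2, singled out after its value was seen, at 158 and 802 RPKM without a call (the authors' adjusted p = 0.171), and the other 7 mural markers summed to 139 and 143 RPKM. Endothelial markers gave no call among 8 (median -0.42, sum 156 and 135 RPKM). Of 6 erythroid markers all were above control without a call (sum 177 and 306 RPKM). Of 6 atrial markers none was called (sum 45.0 and 31.9 RPKM). Skeletal muscle markers summed to 1.67 and 0.887 RPKM over 10 genes, with Myod1 and Myog listed at 0 in both groups and Tnni2 called lower. The part of these cells in the changes of the members was not tested.

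The members lie on 8 chromosomes, and the genes next to them are given as a description of positions that the choice of members did not use. Of 40 nearest protein coding neighbours above 0 (2 on each side of each member), 1 was called, beside 3.51% of all tested rows. Genes that overlap a member are not among the 40, so the called gene Prssl1, which overlaps Fstl3, is not counted there. The called neighbour is Fut1, a fucosyltransferase gene whose start lies 2116 bases from that of Fgf21 on the opposite strand, so that the genes point away from each other. Fut1 was listed at 0 in wild type and 0.472 RPKM in mutant, with adjusted p = 6.74e-05 in the authors' deposited table. On the other side of Fgf21, Bcat2, an enzyme of branched-chain amino acid breakdown, was listed at 3.75 and 6.63 RPKM (the authors' adjusted p = 0.568). The neighbours of Gdf15 were not called, with Lrrc25 at 0.799 and 1.28 RPKM and Pgpep1 at 3.69 and 3.30 RPKM.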

How the data were processed

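RNA of 4 samples was compared, 2 per group. Per the file headers, the deposited table gives for each gene 1 RPKM value per group, the authors' ratio (fold) of the group values in linear and log2 form, and their p-value without and with adjustment. Bowtie 0.12.9, DESeq and build mm9 are named in the submitters' processing notes, with no role for each. For the annotation, the counter and strand the sources used here state nothing. Of 36814 rows, 12360 were listed at 0 in both groups and not tested. A Benjamini-Hochberg adjustment of the deposited p-values over 24454 rows came within 0.593% of the authors' values.

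The table used here has no values per sample, so the authors' test at an adjusted p below 0.05 is the main result, no model was fitted across samples and no replicate could be left out. The 95% intervals take each deposited p as that of a two-sided normal test; none is given for a p above 0.5, a limit set after the values were seen, since the implied error there is a ratio of values near 0. The worth of 1 read is the commonest RPKM times length of short genes (within 2%), with 77 and 66 genes in control and 77 and 91 in mutant, and read numbers use exon lengths of GENCODE mouse release 21 (M21), which is not the build of the table. The members and lists were chosen with earlier results of these data known. Named are all members, called genes of the lists, receptors and partners, and the 3 nearest genes of called members above 0 in both groups. The other genes named without a call, and the neutrophil list, were chosen after their values were seen. All 10 member symbols matched, 9 of them also in the RefSeq promoter table; Erfe and Adgre1 were found as Fam132b and Emr1. Protein sequences were not analysed here. Python 3.11.15, pandas 2.3.3 and scipy 1.17.1 were used, and the adjustment, intervals and motif search were tested on simulated data.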

Additional observations from a re-analysis of the deposited data

How the results depend on the processing

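At adjusted p thresholds of 0.01 and 0.10 the members' calls were 4 and 5, the fifth being Inhba, and the share of all rows called was 2.03% and 4.92%. Adjusted over the 11292 rows with a mean of at least 1 RPKM, 6.31% of rows were called and the members' count was again 4, with Inhba, just under the threshold, in place of Inhbb, whose mean lies below the filter. Adjusted over protein coding rows the count was 4. Calls among the listed pathway genes were 14 and 25 at the thresholds of 0.01 and 0.10 and 15 with the filter, against 19. All pseudocounts and the centring (the median protein coding gene lay at 0.08 on the log2 scale) left 7 members above control. Of 28 member values under alternatives none changed sign for a called gene. Of the 21 with an implied error, 5 moved by more than it: with a pseudocount of 1 RPKM the log2 change of Gdf15 was 4.2, of Fstl3 3.68, of Inhbb 1.20 and of Mstn -0.04, and with 0.1 RPKM that of Mstn was -0.31. The other 7 have no implied error: Fgf21, listed at 0 in control, was at 5.90 with 0.1 RPKM and 2.78 with 1 RPKM, Klb ranged from -0.59 to -0.01 and Metrnl from -0.10 to -0.02. Added pseudocounts shrink low levels by construction. No member's symbol was repeated. No paired analysis was possible because the table holds 1 value per group, and for the same reason no replicate was left out.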
